A study of Mus musculus with 4 samples.

Results

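Claudins were examined in 2 ureter tumor samples and 2 normal ureter samples of C57Bl/6 mice aged 6 to 8 weeks. The 10 claudin genes described, Cldn1, Cldn2, Cldn3, Cldn4, Cldn5, Cldn7, Cldn8, Cldn10, Cldn12 and Cldn23, were named by symbol, and their probe sets were those that the annotation of the chip assigns to a single one of these genes. This gave 18 probe sets of 45101. All 10 genes lay among the 13046 tested of 18193 measured genes, and in each of them both group means were above the filter on dim genes, a signal of 54.65. Each sample was hybridised to 1 Affymetrix mouse array, and the unit is the deposited MAS5 signal, a linear intensity per probe set. All 4 samples, tumor and normal, carry the same text on treatment, which names R26rtTA;teto-Cre;Ncstnf/f mice given Doxycycline for 1 week at 3 weeks of age. In that system the R26 locus, active in most tissues, drives the doxycycline-dependent activator, Cre is made while the drug is given, and Cre removes part of Ncstn, which encodes a subunit of the gamma-secretase that cleaves Notch receptors. Which samples carried which genotype, and whether animals were pooled, is not stated in the labels. The study addressed Notch signaling in cancer of the urothelium.

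Tight junctions seal the space between neighbouring epithelial or endothelial cells near their apical side. Claudins are the membrane proteins that form their strands. Some close the passage between cells to ions, and others form pores that let chosen ions or water through, so the set of claudins that an epithelium makes sets how leaky it is. The urothelium, which lines the ureter and bladder, is a very tight epithelium, while the nephron uses different claudins from segment to segment.

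The arrays differed in ways that touch the claudins. Pearson's r across the genes tested, which are not independent replicates, was 0.786 between the tumor arrays and 0.976 between the normal arrays. The tumor arrays were at least 4-fold apart in 1111 genes and the normal arrays in 49. The 3′ to 5′ signal ratio of the Gapdh control probe sets, which moves with RNA integrity, was 1.51 and 1.44 in tumor and 0.92 and 0.923 in normal ureter, while that of Actb, the other such control, ran the other way, at 2.47 and 2.63 in tumor and 2.9 and 2.82 in normal ureter. Ncstn itself had signals of 81.6 and 131 in tumor and 99.0 and 66.2 in normal ureter, a log2 difference of 0.30 ± 0.42 (SE, n = 2 each, limma adjusted p = 0.725), and where its probe set lies relative to the deleted part was not examined. The labelled tissue was checked against markers. The umbrella cells of the urothelial surface were represented in normal ureter, where 7 of their genes summed to signals of 27265 and 47187, and much less in the tumors, at 943 and 850. Kidney tubule genes were present too. A list of 9 proximal tubule genes summed to 5374 and 90568 on tumor arrays 1 and 2, against 34958.5 and 58142 on the normal arrays, and 7 measured genes of the loop, distal tubule and collecting duct to 1527 and 111354, against 10856 and 16680. The 4 fat cell genes measured summed to 36095 and 6127 in the tumors and 219855 and 240184 in normal ureter.

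The start sites of 8 of the 10 claudin genes were found in RefSeq promoter tables of build GRCm38.p6, with 12 start sites in all. Cldn8 and Cldn23 were not matched. The 250 bases before the start are printed for the genes that the results turn on: Cldn3, which passed the test, Cldn4, its neighbour on chromosome 5 with 0 genes listed between them, and Cldn2 and Cldn10, whose signals were furthest apart between the tumor arrays. Capitals mark matches on either strand to 5 motifs. The GC box was searched as GGGCGG and the E-box of zinc finger repressors of epithelial genes as CAGGTG. The AP-1 motif was searched as TGANTCA, the TATA box as TATAAA and the motif of Grainyhead-like factors as AACCNGTT. The Cldn3 window is chr5:134985964-134986213 on the plus strand, and the Cldn4 window is chr5:134946935-134947184 on the minus strand.
Cldn3: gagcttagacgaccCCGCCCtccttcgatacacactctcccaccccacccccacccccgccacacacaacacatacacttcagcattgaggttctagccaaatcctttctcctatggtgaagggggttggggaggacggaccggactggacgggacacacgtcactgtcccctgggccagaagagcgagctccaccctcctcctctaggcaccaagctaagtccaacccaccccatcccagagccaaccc
Cldn4: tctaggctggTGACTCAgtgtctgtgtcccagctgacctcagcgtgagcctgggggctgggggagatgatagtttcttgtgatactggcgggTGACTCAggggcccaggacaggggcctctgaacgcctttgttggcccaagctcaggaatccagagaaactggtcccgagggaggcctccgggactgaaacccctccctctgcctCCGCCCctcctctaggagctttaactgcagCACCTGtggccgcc
The Cldn3 window held 1 GC box, whose first base was 236 bases before the start. The Cldn4 window held a GC box at 44, an E-box at 14 and AP-1 motifs at 240 and 158 bases before the start.

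Of 32851 promoter windows of this length, 32.7% held a GC box, 17.2% an E-box, 6.75% an AP-1 motif, 12.4% a TATA box and 1.79% a Grainyhead-like motif, with no overlap between the motif matches shown. A match describes letters only and shows no binding. Cldn2 lies on the X chromosome, at chrX:139800558-139800807 on the plus strand, and its window held a TATA box 35 bases before the start.
Cldn2: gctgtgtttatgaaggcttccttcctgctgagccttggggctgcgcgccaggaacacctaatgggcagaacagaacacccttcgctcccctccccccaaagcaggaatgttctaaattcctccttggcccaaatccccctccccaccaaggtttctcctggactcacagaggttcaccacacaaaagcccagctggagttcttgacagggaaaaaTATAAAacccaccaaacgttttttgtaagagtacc
Cldn10 has 2 start sites in the table, both on the plus strand of chromosome 14. The window at chr14:118787621-118787870 had 36% G and C and held none of the motifs. The window at chr14:118854700-118854949 had 72.4% G and C and held GC boxes at 163, 63 and 39 bases before the start.
Cldn10 upstream start: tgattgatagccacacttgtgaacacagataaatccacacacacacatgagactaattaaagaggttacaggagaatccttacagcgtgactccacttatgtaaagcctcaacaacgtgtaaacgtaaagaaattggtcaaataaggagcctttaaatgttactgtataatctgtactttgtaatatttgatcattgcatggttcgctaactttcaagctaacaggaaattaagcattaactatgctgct
Cldn10 downstream start: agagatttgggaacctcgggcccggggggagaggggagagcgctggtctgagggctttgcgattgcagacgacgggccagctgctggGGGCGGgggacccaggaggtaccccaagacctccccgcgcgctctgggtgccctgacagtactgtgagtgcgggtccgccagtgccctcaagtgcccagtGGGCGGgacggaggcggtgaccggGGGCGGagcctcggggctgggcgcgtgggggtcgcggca
The array signal of Cldn10 is not assigned to either start site.

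Tumor and normal ureter were compared to ask which claudins differ in amount. Cldn3 rose, and the other 9 did not pass the test. Cldn7 and Cldn1 had higher signals in each tumor than in either normal sample, and Cldn5 and Cldn23 lower ones. Cldn2, Cldn8, Cldn10 and Cldn12 lay above both normal arrays on tumor array 2 and below both on tumor array 1, and Cldn4 overlapped. The test was limma's two-sided moderated test on log2(signal + 16), with Benjamini-Hochberg adjustment over all genes tested and 0.05 as the threshold. Differences are tumor minus normal on that log2 scale, which understates the change of dim genes, with standard errors for 2 arrays a group.

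The 1 of 10 claudins that rose stands against 64 of 13046 genes, 0.491%, and the 0 claudins that fell stand against 123 genes, 0.943%. At an unadjusted p under 0.05, 2 claudins were higher (10.6% of all genes) and 1 was lower (10.9%). The tumor signals were both above the 2 normal signals in 3 claudins, Cldn1, Cldn3 and Cldn7 (29.4% of all genes), and below them in 2 claudins, Cldn5 and Cldn23 (27.7%). These shares of 3 and 2 in 10 are near those of all genes. The median log2 difference of the 10 claudins was 0.05, beside 0.03 over all genes. The labels speak of biological replicates but name no animals, and the p-values reflect the spread among these samples alone. An exact permutation test of 2 against 2 samples cannot go below p = 0.333 and was not used.

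**Figure D1:**
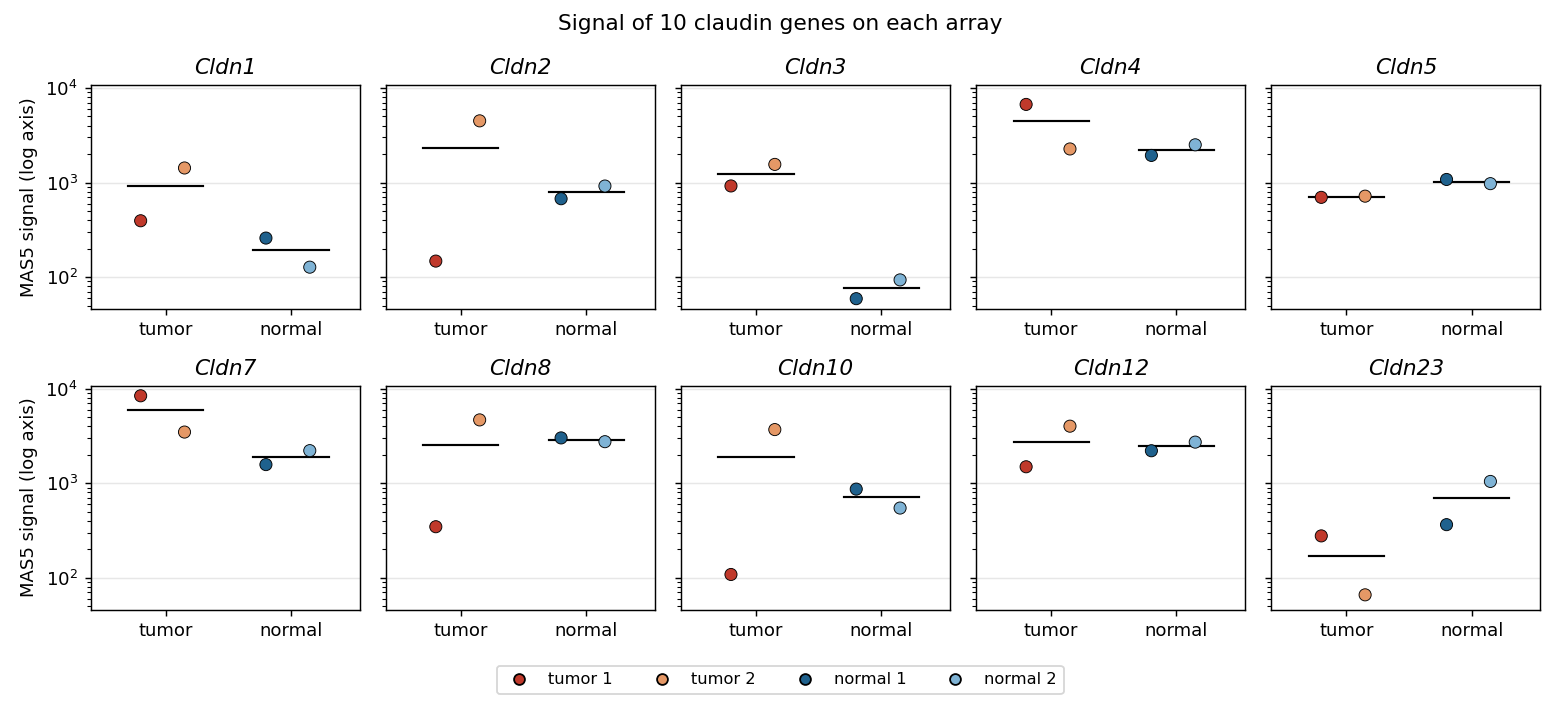
MAS5 signal (log axis) of the 10 claudin genes on each of the 4 arrays, with tumor left of normal ureter in each panel, 1 point per array and a bar at the arithmetic mean of each group. Cldn3 has tumor signals of 920 and 1554 above normal signals of 59.2 and 93.5, while the tumor points of Cldn2, Cldn8 and Cldn10 lie on both sides of the normal points.

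Cldn3 and Cldn4 encode closely related claudins that tighten junctions and that both bind the enterotoxin of Clostridium perfringens. Cldn3 had signals of 920 and 1554 on the tumor arrays, against 59.2 and 93.5 on the normal arrays. Both tumor arrays were far above both normal arrays, and the arrays within a group were close by comparison. The means were 1237 ± 449 in tumor and 76.3 ± 24.2 in normal ureter (SD, n = 2 each), a ratio of 16.2. The log2 difference was 3.74 ± 0.40 (SE, 95% interval 2.64 to 4.84, limma adjusted p = 0.0487), or 13.4-fold on the log2(signal + 16) scale. In bulk tissue, more cells of a type cannot be told apart from more RNA per cell.

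Cldn3 was read by 4 probe sets, and each showed the same order of groups. Probe set 1426332_a_at had signals of 439 and 500 in the tumors and 30.5 and 9.42 in normal ureter. Probe set 1451701_x_at had 958 and 902 in the tumors, against 6.92 and 35.8, and probe set 1460569_x_at had 1067 and 1392, against 38.3 and 68.8. Their log2 differences were 3.82, 4.78 and 4.19, and 3.74 for 1434651_a_at, the brightest by mean log2 signal. In normal ureter the means of these 3 other probe sets were under the filter limit of 54.65. They reached the filter, which uses all 4 arrays, only through the tumor arrays, so no test of them is given here. All 4 read the same gene on the same arrays and are not independent, and the suffix _x_at marks probes that may also bind other transcripts.

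The call of Cldn3 rested on a narrow margin. Its adjusted p was 0.0518 with arrays centred on their medians, 0.0577 without the filter on dim genes and 0.0638 without the intensity trend, and 0.643 or 0.655 when either normal array was left out. The difference itself stayed between 3.37 and 4.11 with any 1 array left out. Lists of other cell types differed between the same samples. The 4 plasma cell genes summed to 122677 and 110194 in the tumors, against 1790 and 1613 in normal ureter, and the 6 macrophage genes to 40003 and 32959, against 9196 and 7919. The 8 genes of epithelial cells of any kind summed to 66877 and 41543 in the tumors and 61669 and 89202 in normal ureter, a range that overlaps. Single genes of this list differed. Cdh1 was above both normal arrays, at 13206 and 9908 in the tumors, against 5777 and 6945. Krt18 was below both, at 3099 and 5390 against 13581 and 20882, and the other 6 overlapped. The part of these cell types and of the Gapdh and Actb ratios in the Cldn3 result was not tested.

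**Figure D2:**
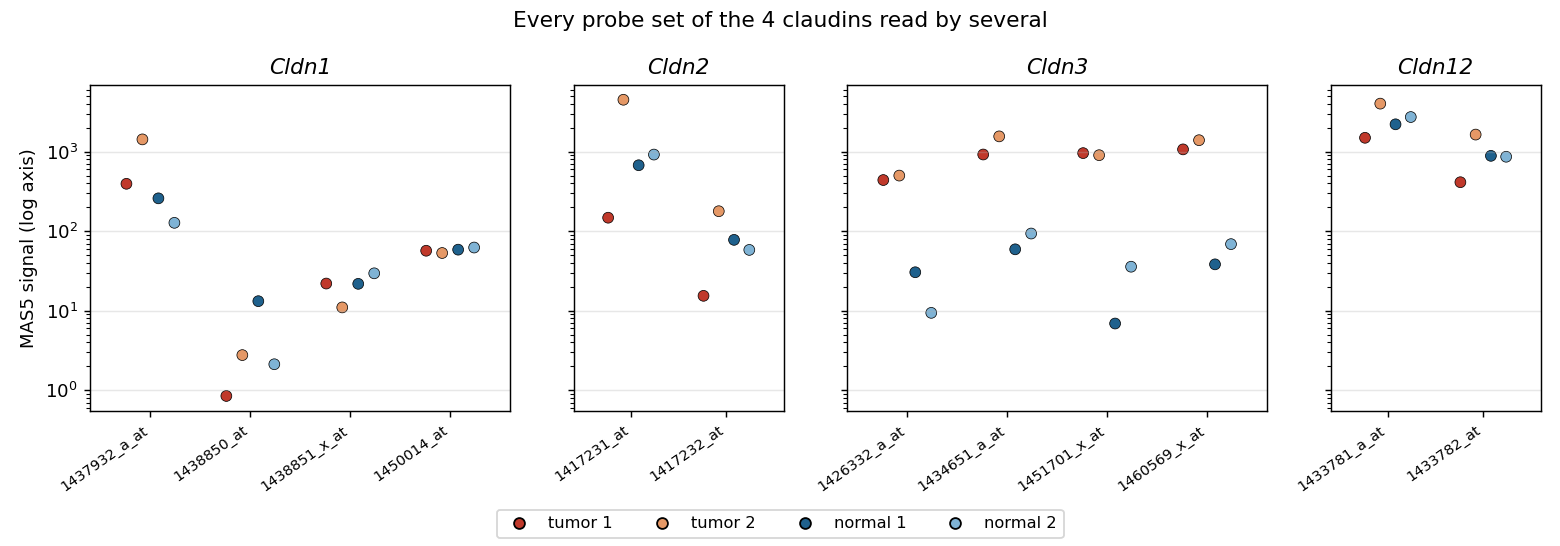
MAS5 signal (log axis) of every single-gene probe set of the 4 claudins read by more than 1, with 1 point per array and tumor arrays left of normal arrays. All 4 probe sets of Cldn3 have both tumor points above both normal points, while among the 4 of Cldn1 only 1437932_a_at does.

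Cldn4 had signals of 6693 and 2263 on the tumor arrays, against 1934 and 2504 on the normal arrays. Only tumor array 1 lay above both normal arrays, and tumor array 2 lay between them, so the groups overlapped. The tumor arrays were 2.96-fold apart. Its log2 difference was 0.82 ± 0.58 (SE, 95% interval -0.78 to 2.41, limma adjusted p = 0.474).

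Cldn7 encodes a claudin of the basolateral membrane as well as of the junction, where it binds the adhesion protein Epcam. It had signals of 8393 and 3473 in the tumors and 1573 and 2210 in normal ureter. Both tumor arrays were above both normal arrays, with tumor array 1 highest. The log2 difference was 1.53 ± 0.50 (SE, 95% interval 0.15 to 2.90), with an unadjusted p of 0.0367 and a limma adjusted p of 0.203, so it did not pass. Cldn7 and Cldn4 both had their highest signal on tumor array 1, which was also the array with the most signal from basal urothelial genes. That list of 8 genes, with Krt5 and Krt15, summed to 113419 and 8249 on tumor arrays 1 and 2, against 9402 and 12958 on the normal arrays. In 5 of the 8, Krt15 among them, both tumor arrays were above both normal arrays (29.4% of all genes). In the other 3, Krt5 among them, tumor array 1 lay above and tumor array 2 below both. The 5 mast cell genes were also highest on tumor array 1, at 65505 and 632, against 745 and 640. So were the fibroblast, plasma cell and macrophage lists, while the kidney lists were highest on tumor array 2. The part of these cell types in the Cldn7 and Cldn4 values was not tested.

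Cldn1 encodes a sealing claudin without which the skin barrier of mice fails. Its brightest probe set, 1437932_a_at, had signals of 394 and 1425 in the tumors and 259 and 127 in normal ureter. Both tumor arrays were above both normal arrays, with tumor array 2 far above tumor array 1. On the log2 scale the difference was 1.95 ± 0.75 (SE, 95% interval -0.10 to 4.01, limma adjusted p = 0.247). The other 3 probe sets of Cldn1 were dim and did not separate the groups in the same way. Probe set 1450014_at had signals of 56.8 and 53.2 in the tumors and 58.6 and 62.3 in normal ureter, and 1438851_x_at had 22.0 and 11.02 against 21.8 and 29.6. Probe set 1438850_at had 0.85 and 2.77 in the tumors, against 13.2 and 2.13. With the mean of all 4 probe sets the difference of Cldn1 was 0.28, so its size depends on the choice of probe set.

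Cldn2 and Cldn10 encode claudins that form pores. Claudin-2 passes cations and water in the proximal tubule, and claudin-10 has variants that pass anions or cations, made in different nephron segments. Cldn2 had signals of 148 and 4486 on tumor arrays 1 and 2, against 674 and 918 on the normal arrays. The tumor arrays lay on either side of the normal ones and were 30.4-fold apart. The log2 difference was 0.10 ± 1.68 (SE, 95% interval -4.53 to 4.73, limma adjusted p = 0.982), an interval too wide to show whether the groups differ. The dimmer probe set of Cldn2, 1417232_at, also had the tumor arrays on either side of the normal ones, with 15.4 and 178 in the tumors and 77.8 and 58.2 in normal ureter.

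Cldn10 had signals of 108 and 3689 on tumor arrays 1 and 2, against 866 and 546 on the normal arrays. Its tumor arrays were 34.0-fold apart, again with the normal arrays between them. The fitted difference was -0.05 ± 1.73 (SE, 95% interval -4.82 to 4.71, limma adjusted p = 0.991).

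Cldn8 encodes a claudin of the distal nephron and collecting duct that acts there together with claudin-4. It had signals of 347 and 4669 on tumor arrays 1 and 2, against 3012 and 2748 on the normal arrays. Tumor array 1 was far below the normal arrays and tumor array 2 above them, 13.5-fold apart. The log2 difference was -1.15 ± 1.30 (SE, 95% interval -4.72 to 2.42, limma adjusted p = 0.651).

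Cldn12, a claudin made in many epithelia and linked in mice to the passage of calcium, also had its tumor arrays on either side of the normal ones, but closer together. It had signals of 1492 and 4008 in the tumors and 2204 and 2719 in normal ureter, and its second probe set, 1433782_at, had 412 and 1637 against 885 and 863. This gave a log2 difference of 0.00 ± 0.53 (SE, 95% interval -1.46 to 1.46), and its limma adjusted p was 1.

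The tumor arrays were split in Cldn2, Cldn8, Cldn10 and Cldn12. Cldn2, Cldn8 and Cldn10 were at least 4-fold higher on tumor array 2 than on tumor array 1 on the log2(signal + 16) scale, as were 5.03% of all genes, and 0 claudins were that much higher on tumor array 1, as were 3.49%. Together with Cldn12 they make 4 claudins that lay above both normal arrays on tumor array 2 and below both on tumor array 1, a pattern held by 11.5% of all genes. The same pattern was held by 9 of 9 proximal tubule genes and 6 of 7 genes of the loop, distal tubule and collecting duct. Kap, a proximal tubule gene of mouse kidney, had signals of 101 and 52269 on tumor arrays 1 and 2, against 16792 and 41745 on the normal arrays. Umod, which encodes the urinary protein uromodulin of the thick ascending limb, had 1268 and 57258, against 4997 and 9982. The part of kidney tissue in the claudin values was not tested.

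**Figure D3:**
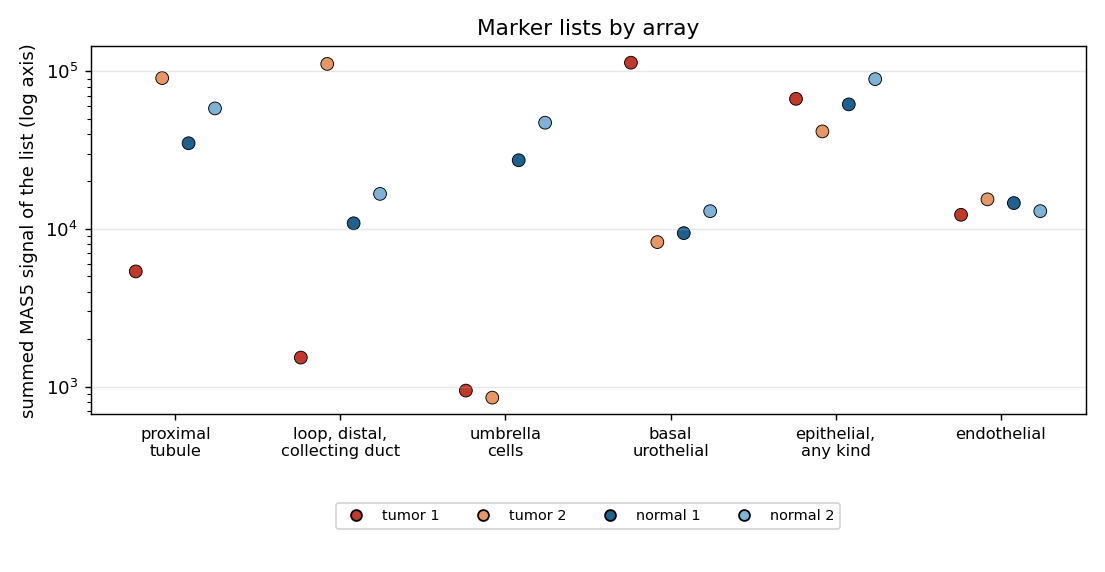
Summed MAS5 signal (log axis) of 6 cell type lists on each array, with tumor arrays left of normal arrays in each list. The kidney lists are lowest on tumor array 1 and highest on tumor array 2, the umbrella cell list is low on both tumor arrays at 943 and 850, and the basal list is highest on tumor array 1.

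Without tumor array 1, the log2 differences of Cldn2, Cldn10 and Cldn8 were 2.49, 2.39 and 0.70. Without tumor array 2 they were -2.29, -2.50 and -3.00. Each of these passed the adjusted threshold, since the lone tumor array was then assumed to vary as little as the normal ones, and for each gene the direction turned with the array left out. The same fits called 8 of 10 claudins without tumor array 1, beside 32.9% of all genes, and 10 of 10 without tumor array 2, beside 42.2%. Without either normal array limma called 0 claudins and 0 of all genes, with 884 and 889 genes at an unadjusted p under 0.05.

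Cldn5, the main claudin of endothelial cells and a part of the blood-brain barrier, had signals of 697 and 718 in the tumors and 1077 and 973 in normal ureter. Both tumor arrays were below both normal arrays, and replicates were close in both groups. The log2 difference was -0.52 ± 0.19 (SE, 95% interval -1.05 to -0.0024), with an unadjusted p of 0.0493 and a limma adjusted p of 0.231, so it did not pass. The 13 listed endothelial genes, which leave out Cldn5, summed to 12292 and 15402 in the tumors, against 14588 and 12963 in normal ureter, which overlap. Of these, 0 passed in limma, and 4 had an unadjusted p under 0.05, beside 2802 of 13046 genes. The median log2 difference of the 13 was -0.08. Kdr, a receptor for VEGF, had a difference of -0.93, Eng, a TGF-beta co-receptor, 1.17, and Plvap, a protein of endothelial fenestrae, 1.13.

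Cldn23 had signals of 277 and 66.1 in the tumors and 365 and 1044 in normal ureter. Both tumor arrays were below both normal arrays, but the normal arrays were themselves 2.86-fold apart and tumor array 1 was close to the lower of them. The estimate was a log2 difference of -2.03 ± 0.86 (SE, 95% interval -4.39 to 0.32, limma adjusted p = 0.278). Genes of the umbrella cells were low in the same samples. Upk3a, a uroplakin of the apical plaque, had signals of 69.8 and 52.3 in the tumors and 5987 and 11462 in normal ureter and fell by 6.76 on the log2 scale (limma adjusted p = 0.0369), and Upk1b fell by 5.66 and Snx31 fell by 4.50 (limma adjusted p = 0.0425 and 0.0402). In all, 4 of the 7 listed umbrella cell genes fell, beside 0.943% of all genes. Both tumor arrays were below both normal arrays in all 7 (27.7% of all genes). The part of umbrella cells in the Cldn23 values was not tested.

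**Figure D4:**
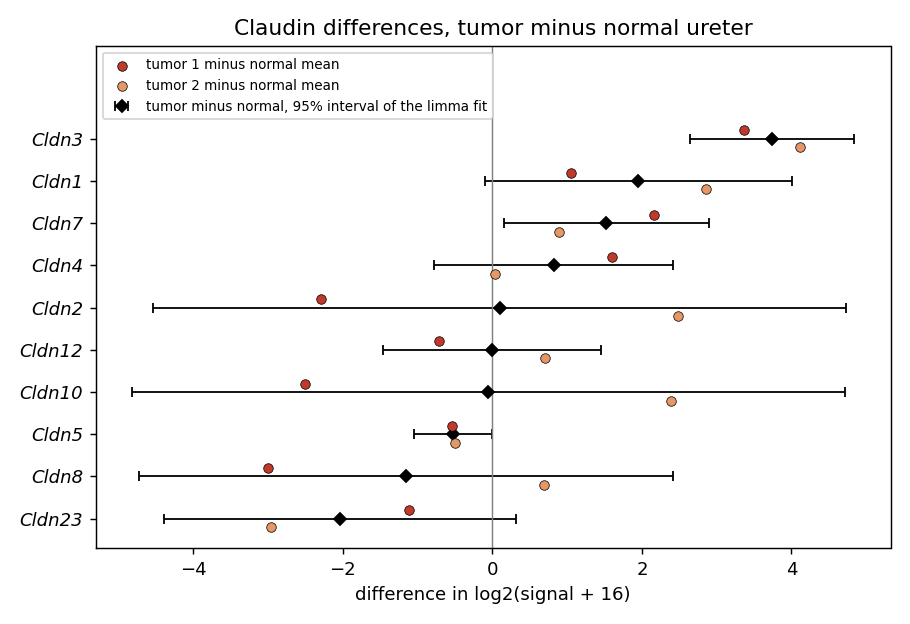
Difference of each claudin in log2(signal + 16), tumor minus normal ureter, with diamonds for the limma estimate and bars for its 95% interval, and circles for each tumor array minus the mean of the normal arrays. The interval of Cldn3 runs from 2.64 to 4.84, while those of Cldn2, Cldn8 and Cldn10 each cross 0 with the circles of the tumor arrays on opposite sides.

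Of 17 other claudins and claudin-domain genes, 12 were on the array as single-gene probe sets and 4 were bright enough to test. Of the 4, 0 passed in limma and 1 had an unadjusted p under 0.05, beside 2802 of 13046 genes. Cldn22 had signals of 85.5 and 121 in the tumors and 650 and 503 in normal ureter, a log2 difference of -2.32 ± 0.32 (SE, limma adjusted p = 0.0674). Cldn16, which encodes a claudin of the thick ascending limb needed to recover magnesium, had 90.4 and 1333 on tumor arrays 1 and 2, against 99.1 and 93.6, so only tumor array 2 stood out. The claudin-domain gene Cldnd1 and Cldn15, a cation pore of the intestine, had differences of -0.13 and -0.23. Their median was -0.18.

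The 13 other transmembrane proteins of the junction were all tested, and 0 passed in limma. An unadjusted p under 0.05 was found in 4 of the 13, beside 2802 of 13046 genes. In 6 of them both tumor arrays were above both normal arrays (29.4% of all genes) and in 1 below (27.7%). Their median log2 difference was 0.65, beside 0.03 over all genes. Ocln, which encodes occludin of the junction strands, had signals of 1171 and 1162 in the tumors, against 442 and 542 in normal ureter, with replicates close together (difference 1.23 ± 0.21, SE, limma adjusted p = 0.0909). Lsr, which recruits proteins to the corners where cells meet, had a difference of 1.62 (limma adjusted p = 0.178), and the virus receptor Cxadr 0.72 (0.156). With the mean of probe sets the difference of Lsr was 0.51, so its size depends on the choice of probe set. The junctional adhesion genes Jam2 and F11r had differences of -1.01 and 0.65 (limma adjusted p = 0.129 and 0.428).

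Of the 22 genes measured for the cytoplasmic plaque, which ties the strands to actin and signaling proteins, 0 passed in limma. An unadjusted p under 0.05 was found in 2 of the 22, beside 2802 of 13046 genes, and the median difference of the 22 was 0.06. Sympk, which also acts in the processing of mRNA ends, had -0.91, the scaffold gene Mpdz -0.63, Magi1 0.65, Patj 0.83 and Ybx3, a regulator of transcription that shuttles from junctions, 0.07.

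Among 19 measured binders, proteases and transcriptional regulators of claudins, 1 rose (0.491% of all genes) and 0 fell (0.943%). St14 encodes matriptase, a membrane protease that cleaves Epcam and is needed for epithelial barriers. Its signals were 2017 and 2231 in the tumors, against 613 and 658 in normal ureter, without overlap (difference 1.72 ± 0.18, SE, limma adjusted p = 0.048). Its adjusted p was 0.0511 with quantile normalization, 0.0528 with the mean of probe sets and 0.643 or 0.66 with either normal array left out, so this call was narrow too. Epcam, which holds claudin-7 in a complex, had signals of 17023 and 9994 in the tumors and 4002 and 3371 in normal ureter (difference 1.82 ± 0.33, SE, limma adjusted p = 0.0961). Spint2, an inhibitor of matriptase, and the epithelial factor Elf3 had differences of 0.56 and 1.26 (limma adjusted p = 0.213 and 0.192). Grhl1, a Grainyhead-like factor, had -2.06 (limma adjusted p = 0.123). Over the 19 genes the median was 0.40, with 8 above both normal arrays (29.4% of all genes) and 4 below (27.7%).

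The genes whose values over the 4 arrays were most like those of Cldn3 and Cldn7 were found by the Euclidean distance between centred log2(signal + 16) values. For Cldn3 they were Cyp4a12a at a distance of 0.304, Gpr176 at 0.369 and Ifi44l at 0.394. Cyp4a12a, a cytochrome P450 gene, had signals of 365 and 706 in the tumors, against 22.2 and 42.8 in normal ureter. For Cldn7 they were Sec11c at 0.0683, Cdcp1 at 0.101 and Tspan8 at 0.125. Tspan8, a tetraspanin, had 16086 and 6884 in the tumors, against 2944 and 3897 in normal ureter, the same order of arrays as Cldn7.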

How the data were processed

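The authors deposited 1 table of signal intensity per probe set for the 4 arrays, and the submitters' processing notes name MAS5 as the tool. Its version, detection calls and filters were not given in the sources used here. With 2% of probe sets trimmed from both ends, the mean was 500 on every array, so signals are relative within an array. Median signals were 85.03 and 94.2 in tumor and 106.7 and 102.9 in normal ureter. The number of arrays limits the precision.

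Symbols came from the platform annotation, and 34741 of 34945 single-gene probe sets had theirs brought up to date from a newer table of genes. Another 932 probe sets had several symbols and 9160 none, and these were not named. The 64 control probe sets were left out. For each gene, the single-gene probe set brightest by mean log2(signal + 16) was used, and genes in which this mean reached the 40th percentile over non-control probe sets were tested with limma 3.58.1 in R 4.3.3, with 2 residual and 2.11 prior degrees of freedom. Of 184 listed symbols, 170 were matched on the array.

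Named genes were all claudin members, from each pathway list the brightest gene and up to 4 with the lowest unadjusted p, from each cell type list that a result touches the brightest gene and up to 2 chosen likewise, and the 3 genes nearest to each of the 2 claudins with the smallest p. Ncstn, Krt5 and Ptprb were named besides as context. Some genes that the rule picked from cell type lists, such as Krt7, Itga6 and Miox, were not named. The members and lists were chosen with earlier results of these data known. Alternatives were pseudocounts of 1 and 64, quantile normalization, median centring, other filters, the mean of probe sets, every probe set, no or a robust intensity trend, a replicate block, a 2-fold rule and each array left out. The labels name no pairs, so the replicate numbers were not taken as pairs. Samples with the same number did not deviate together across genes (correlation 0.0391), which with 2 samples a group cannot settle whether they were pairs. Promoter windows came from RefSeq. Figures were drawn with matplotlib 3.10.9.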

Additional observations from a re-analysis of the deposited data

How the results depend on the processing

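The 1 claudin past the test became 0 with median centring, without the filter, without the intensity trend and with the replicate number as a block (Cldn3 adjusted p = 0.108 in limma), and 2 when 2-fold differences with unadjusted p under 0.05 were counted (the 2-fold rule), and it ranged from 0 to 10 with 1 array left out. The 1 pathway gene became 0 with quantile normalization, median centring, the mean of probe sets, no filter, no trend or the block, and 8 under the 2-fold rule, and it ranged from 0 to 33 with 1 array left out. Over all genes the 187 calls became 35 with median centring, 104 with the mean of probe sets, 357 with every probe set, 2 without the trend, 0 with the replicate block (limma, 2253 at an unadjusted p under 0.05) and 1880 under the 2-fold rule, and ranged from 0 (884 and 889 unadjusted) to 5502 with 1 array left out. Without a tumor array the lone one is assumed to vary like the normal arrays. The cause of the other changes was not tested. Median centring moved the median difference of all genes to 0.22, and a pseudocount of 64 or that centring turned Cldn10 to 0.09447 or 0.14 and Cldn12 to 0.002955 or 0.20, while Cldnd1 became 0.06278 with centring. The mean of probe sets turned Cldnd1 to 0.16, Patj to -0.03736, Ybx3 to -0.13 and Ncstn to -0.11. Without a change of sign, it shrank Lsr to 0.51, F11r to 0.20, Magi1 to 0.38 and Sympk to -0.25. With 1 array left out, differences ranged from -2.29 to 2.49 for Cldn2, -3.00 to 0.70 for Cldn8, -2.50 to 2.39 for Cldn10, -0.71 to 0.71 for Cldn12, -0.07841 to 3.59 for Cldn16, -0.58 to 0.32 for Cldnd1, -0.43 to 0.57 for Ybx3, and -0.84 to 0.39 for Cldn15. Of 42 genes followed (the claudins, Ncstn and the pathway, umbrella cell, endothelial and nearest genes named by rule), 0 reversed with a pseudocount of 1, quantile normalization, no filter, every probe set, either trend setting or the block. The labels' replicate numbers gave no sign of pairing (correlation 0.0391), but with 2 samples a group this cannot settle whether they were pairs. The difference of Cldn3 was 3.74 with the block, as without it.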
